A study of Mus musculus with 18 samples.

Results

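The 10 genes described here are long noncoding RNAs of 2 kinds, taken by symbol from a deposited table of 55487 mouse genes: Neat1 and Malat1, which stay in the nucleus, and the 8 host genes of small nucleolar RNAs (snoRNAs) Gas5, Snhg1, Snhg3, Snhg5, Snhg6, Snhg8, Snhg12 and Zfas1. Each symbol had 1 row in the table, and all 10 were among the 16432 genes with enough reads to be tested. The samples were 18 cultures labelled as primary mouse Leydig cells, the androgen-producing cells of the testis, in 6 groups of 3. Of these groups, 3 received an siRNA against Prdx1, the peroxide-removing enzyme peroxiredoxin 1: siprdx1+H2O2+FV, siprdx1+H2O2 and siprdx1. The other 3 received the siRNA labelled siNC in its place: siNC+H2O2+FV, siNC+H2O2 and siNC. Groups with H2O2 in their name were given 200 µM hydrogen peroxide for 30 min. Groups with FV were then given 5 µM fluvastatin, a statin that blocks HMG-CoA reductase, for 6 h, and the remaining groups 0.1% DMSO for the same time. Fluvastatin was given only after H2O2, so its effect without the oxidant was not measured. Whether the fluvastatin groups also had DMSO is not recorded, nor are the strain, age and number of the animals, so p-values measure the spread between cultures called biological replicates.

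Neat1 RNA is the scaffold of paraspeckles, nuclear bodies that hold RNA-binding proteins such as NONO and SFPQ, and it is known as a stress-responsive transcript. Malat1 RNA is among the most abundant nuclear RNAs and collects in nuclear speckles, the bodies rich in splicing factors. The host genes make snoRNAs from their introns, while the spliced host RNA that remains is exported, meets ribosomes and, for Gas5 and several others, is degraded by nonsense-mediated decay. Many host genes begin transcription at a run of C and T bases, the 5′ terminal oligopyrimidine (TOP) tract, which ties an RNA's fate to translation.

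Library totals ranged between 15201530 and 23898435 counts, and the 10 genes together took 0.12% to 0.278% of them. Prdx1 fell to 35.0%, 32.1% and 36.0% of the siNC level without H2O2, after H2O2, and after H2O2 with fluvastatin. Of the markers that define Leydig cells, Cyp11a1 averaged 712 CPM (counts scaled to library size) over the 18 libraries and Star 286 CPM, whereas Cyp17a1 and Hsd17b3 averaged 0.0318 and 0.067 CPM and were at 0 in 9 and 6 libraries. Macrophage markers (17 of 17 tested, Lyz2 at 5677 CPM) and fibroblast markers (10 of 11 tested, Col1a1 at 3716 CPM) were abundant, with summed levels of 8706 to 11120 CPM and 15320 to 20010 CPM in single libraries. In such bulk RNA fewer cells of a type and less RNA per cell cannot be told apart. Libraries 1 and 2 of siprdx1+H2O2 stood apart from each other: their deviations from the group mean correlated with gene GC content at -0.38 and 0.389 across 16410 genes. Single libraries of other groups came close, at 0.361 in siprdx1 library 2, 0.325 in siNC+H2O2+FV library 3 and -0.274 in siNC library 2. Results that rest on siprdx1+H2O2 are given with and without its libraries 1 and 2. Without both, siprdx1+H2O2 is 1 library, assumed to vary like the other groups, and fewer of all genes tested are called (565 against 1293 for H2O2 in siprdx1 cells, 2432 against 3876 for fluvastatin in siprdx1 cells, and 122 against 448 for the knockdown after H2O2). A call lost in that fit is therefore no measure of a smaller effect, and its values are those of library 3.

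On the mouse build GRCm38 (mm10), Neat1 lies on the minus strand at chr19:5824708-5845478 and Malat1 next to it, on the same strand, at chr19:5795690-5802672. GENCODE vM21 joins the exons of all transcripts of each into 1 block of 20771 bp for Neat1 and 6983 bp for Malat1, so a gene count cannot separate the short and long Neat1 transcripts. The libraries were made from poly(A) RNA, and the long Neat1 transcript and most Malat1 RNA are known to end without an ordinary poly(A) tail. The levels below are therefore those of the RNA that oligo(dT) selection kept. The hosts lie at chr1:161034422-161038539 (Gas5, plus strand), chr19:8723475-8726443 (Snhg1, plus), chr4:132348014-132353686 (Snhg3, minus), chr9:88521050-88522929 (Snhg5, minus), chr1:9941959-9944118 (Snhg6, minus), chr3:123507552-123508404 (Snhg8, minus), chr4:132308623-132311024 (Snhg12, plus) and chr2:167062934-167065862 (Zfas1, plus). Together they hold 32 annotated snoRNA entries at 30 positions, between 1 in Snhg6 and Snhg8 and 9 positions in Gas5.

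**Figure D1:**
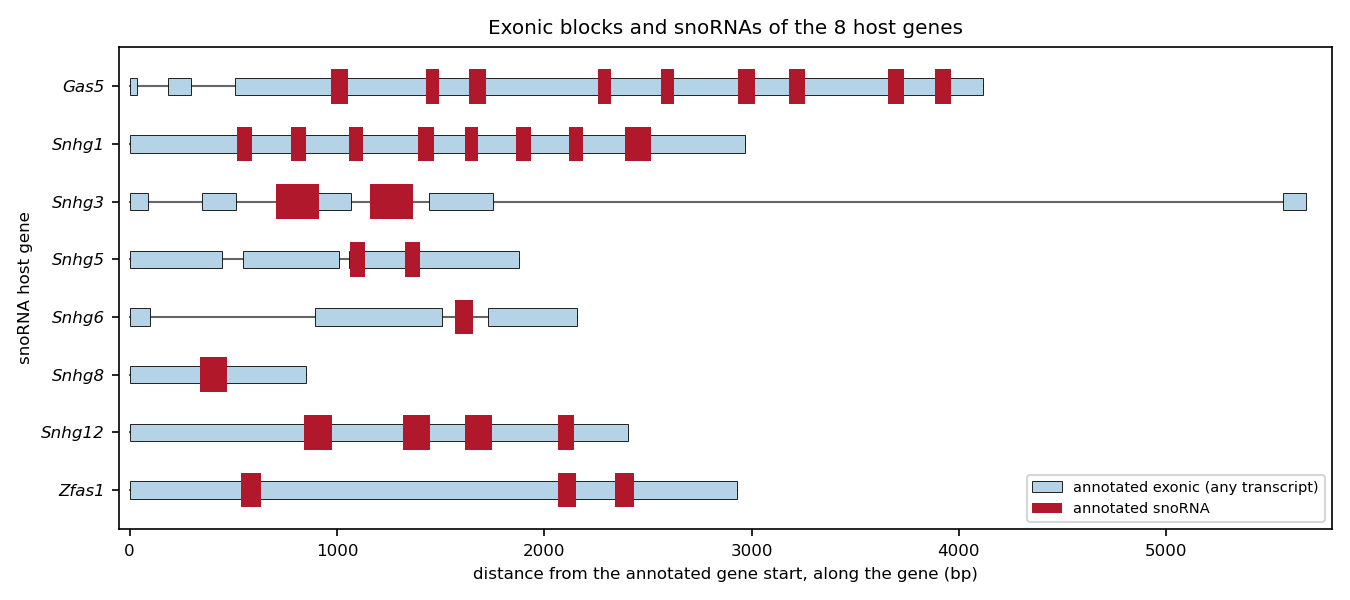
Annotated exonic blocks (blue, any transcript) and snoRNAs (red) of the 8 host genes, drawn along each gene from its start (horizontal axis in bp; 1 row per gene). Of the 30 snoRNA positions, 2 have no base in an annotated exonic block, Snord87 in Snhg6 and Snora73b in Snhg3, and the others lie wholly or partly inside the joined exons of all transcripts.

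Box C/D snoRNAs guide 2′-O-methylation of ribosomal RNA and box H/ACA snoRNAs guide pseudouridylation, and both are recognised by short boxes near their ends. The following are shown because they are products of hosts with called changes (Snord47 of Gas5, Snord50a of Snhg5, Snora24 of Snhg8, and Gm23201 and Snord12 of Zfas1). Capitals mark box C (TGATGA) and box D (CTGA), or the ACA box of Snora24, and the sequences are read 5′ to 3′ from GRCm38 at the GENCODE positions.
Snord47: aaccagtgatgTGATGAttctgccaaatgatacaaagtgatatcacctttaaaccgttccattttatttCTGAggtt
Snord50a: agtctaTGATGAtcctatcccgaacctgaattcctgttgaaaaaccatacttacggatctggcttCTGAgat
Snora24: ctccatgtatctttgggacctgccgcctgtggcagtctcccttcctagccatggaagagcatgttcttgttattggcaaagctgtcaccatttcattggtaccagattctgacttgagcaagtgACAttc
Gm23201: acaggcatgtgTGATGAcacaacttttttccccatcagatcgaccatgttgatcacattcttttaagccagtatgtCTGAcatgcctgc
Snord12: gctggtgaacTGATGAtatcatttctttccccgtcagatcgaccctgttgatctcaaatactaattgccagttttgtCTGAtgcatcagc
Of all 32 entries, 21 held both box C and box D in these letters, 6 held the ACA box and 5 held neither form.

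RefSeq promoter sequences (GRCm38.p6) were matched for 8 of the 10 genes, all but Neat1 and Snhg6. The 5 starts below, each 50 bases before to 50 bases from the annotated start on the gene's own strand, are shown because they carry a run of at least 6 C and T bases beginning within 10 bases before to 20 bases after it, in capitals.
Gas5: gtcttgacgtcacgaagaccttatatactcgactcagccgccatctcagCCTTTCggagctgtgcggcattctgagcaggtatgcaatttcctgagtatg
Snhg1: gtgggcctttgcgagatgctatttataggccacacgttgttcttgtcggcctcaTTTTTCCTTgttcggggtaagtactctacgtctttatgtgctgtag
Snhg5: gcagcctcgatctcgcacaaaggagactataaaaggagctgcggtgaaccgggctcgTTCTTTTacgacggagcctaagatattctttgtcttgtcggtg
Snhg8: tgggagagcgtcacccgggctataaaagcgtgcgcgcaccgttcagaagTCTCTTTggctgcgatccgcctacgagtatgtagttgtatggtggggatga
Snhg12: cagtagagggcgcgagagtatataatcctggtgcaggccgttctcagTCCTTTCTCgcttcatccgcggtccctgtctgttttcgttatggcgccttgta
The windows are chr1:161035116-161035215 (Gas5), chr19:8723437-8723536 (Snhg1), chr9:88522848-88522947 (Snhg5), chr3:123508287-123508386 (Snhg8) and chr4:132308628-132308727 (Snhg12). Such a run was found in 30.9% of 32851 mouse promoters of the same table. Malat1, Snhg3, Zfas1 and a second annotated Gas5 start had none in these letters. The Gas5 window also held TGACGTCA, the palindromic cAMP response element, which 1.79% of the promoters hold within their 300 bases. On either strand, TATAAA was in the 300-base windows of Snhg1, Snhg3, Snhg5 and Snhg8 and in 13.6% of all, and the E-box CACGTG and the AP-1 site TGAGTCA, found in 7.15% and 5.2% of all, were in none of the 8 genes' windows.

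Counted in RPKM, which divides reads by annotated exon length and library size, Malat1 was the most abundant at a mean of 165.7 RPKM over the 18 libraries, followed by Gas5 at 43.9, Snhg8 at 25.7, Neat1 at 23.7, Snhg6 at 15.1, Zfas1 at 14.8, Snhg5 at 13.5, Snhg12 at 10.8, Snhg1 at 10.3 and Snhg3 at 5.85 RPKM. In Snhg1, Snhg8, Snhg12 and Zfas1 the joined exons cover the whole gene, introns included. In Gas5 and Snhg5 they cover nearly all of it (3760 of 4118 bp and 1730 of 1880 bp). The per-length levels of these genes are therefore low estimates for spliced RNA. The Neat1 level divides by all 20771 bp of its block. It is a low estimate too if oligo(dT) selection kept mainly the short transcript, which was not tested. In CPM, which ignores length, Neat1 averaged 493 over the 18 libraries, against 165 for Gas5 and 21.9 for Snhg8. Levels within a gene are given below in CPM after scaling by trimmed mean of M-values (TMM), and fold changes come from edgeR's quasi-likelihood test over all genes, with Benjamini-Hochberg adjusted p-values and 0.05 as the threshold.

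Neat1 was lowered by H2O2 in both siRNA arms, and its response to fluvastatin differed between the siRNAs. After H2O2 its 3 siprdx1 libraries held 362, 347 and 329.6 CPM, against 800.4, 739 and 745 CPM in siprdx1 without H2O2. In the siNC arm the values were 332, 359 and 364 CPM after H2O2 and 726, 715 and 749.5 CPM without it. All H2O2 libraries lay far below all untreated ones. The log2 fold change was -1.14 ± 0.06 in siprdx1 cells (SE, adjusted p = 4.24e-12) and -1.05 ± 0.06 in siNC cells (adjusted p = 1.01e-11), and the difference between the arms was -0.08 ± 0.08 (adjusted p = 0.997). The share of counts from mitochondrial genes was also lower after H2O2, at 0.988% to 1.24% in siprdx1+H2O2, against 1.29% to 1.47% in siprdx1, and 1.13% to 1.23% in siNC+H2O2, against 1.36% to 1.41% in siNC, and its part in the result was not tested.

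With fluvastatin after H2O2, Neat1 held 467, 463 and 453 CPM in siprdx1+H2O2+FV, above every siprdx1+H2O2 library (log2 fold change 0.41 ± 0.06, adjusted p = 7.63e-06). In siNC+H2O2+FV it held 325, 278 and 318 CPM, below every siNC+H2O2 library, but by a small margin (log2 fold change -0.20 ± 0.06, adjusted p = 0.0143). The drug effects in the siprdx1 and siNC arms thus had opposite signs, and their difference was itself called, at 0.61 ± 0.08 on the log2 scale (adjusted p = 0.000143, fluvastatin by knockdown interaction, which called 0.651% of all genes tested and no other of the 10). The rise in the siprdx1 arm and the interaction passed under all 28 alternative settings, the interaction with values between 0.54 and 0.86. Without siprdx1+H2O2 libraries 1 and 2 the siprdx1 arm had -1.21 for H2O2 and 0.48 for fluvastatin, and the interaction was 0.68. The fall in the siNC arm missed the threshold without siNC+H2O2 library 2 (-0.18, adjusted p = 0.0589), without siNC+H2O2 library 3 (-0.17, adjusted p = 0.075) and without siNC+H2O2+FV library 2 (-0.13, adjusted p = 0.138). It was deeper with library size alone (-0.30) and with GC and length offsets, without and with the replicate number as a block (-0.47 for each).

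Set against cells that had neither agent, Neat1 after H2O2 and fluvastatin stayed at 60.6% in the siprdx1 arm (log2 fold change -0.72 ± 0.06, adjusted p = 1.07e-09) and at 42.0% in the siNC arm (log2 fold change -1.25 ± 0.06, adjusted p = 6.59e-14). The siprdx1+H2O2+FV libraries accordingly lay above all siNC+H2O2+FV libraries, 1.5-fold on average (log2 fold change 0.59 ± 0.06, adjusted p = 8.38e-07). The knockdown alone gave 0.06 ± 0.06 (adjusted p = 0.802) and after H2O2 -0.02 ± 0.06 (adjusted p = 0.911), with overlapping libraries in both cases. Ordered by mean, the groups were siprdx1 (761 CPM), siNC (730.2), siprdx1+H2O2+FV (461), siNC+H2O2 (352), siprdx1+H2O2 (346) and siNC+H2O2+FV (307). Between neighbours in that order, only siprdx1 with siNC and siNC+H2O2 with siprdx1+H2O2 overlapped.

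**Figure D2:**
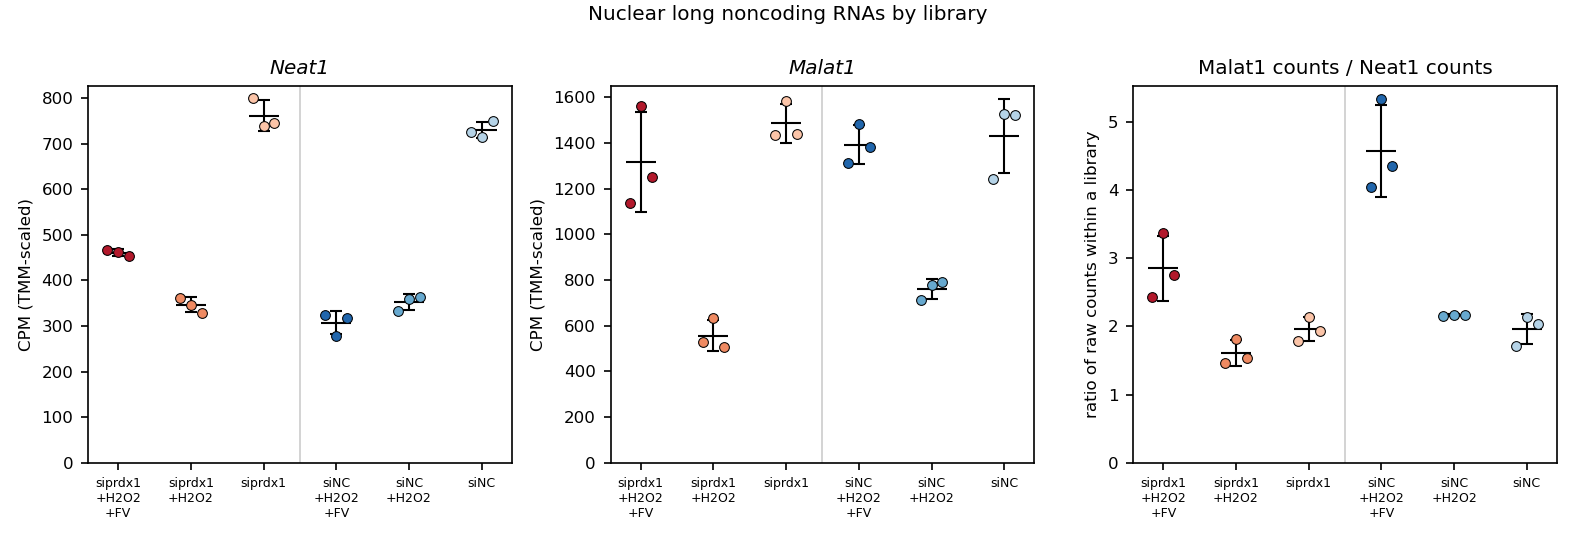
Neat1 and Malat1 levels in TMM-scaled CPM and the ratio of their raw counts in each of the 18 libraries; points are libraries, bars the mean ± SD of 3. Neat1 is low in all 4 H2O2 groups and is 461 CPM on average in siprdx1+H2O2+FV against 307 CPM in siNC+H2O2+FV, while Malat1 is low only in the pair of H2O2 groups without fluvastatin.

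Malat1 was lowered by H2O2 as well, and was raised by fluvastatin after H2O2 in both arms. It held 530.3, 632 and 505 CPM in siprdx1+H2O2 libraries, against 1436, 1585 and 1440.0 CPM in siprdx1 libraries (log2 fold change -1.42 ± 0.11, adjusted p = 5.16e-08). It held 712, 779.7 and 792 CPM in siNC+H2O2 libraries, against 1241, 1526 and 1525 CPM in siNC libraries (log2 fold change -0.91 ± 0.11, adjusted p = 1.67e-05). No library of either H2O2 group reached the lowest untreated one. The fall was numerically deeper in siprdx1 cells, but the difference between arms, -0.51 ± 0.15, was not called (adjusted p = 0.317; H2O2 by knockdown interaction, 0.243% of all genes tested called and 0 of the 10, of which 4 had an unadjusted p under 0.05). It was called with the replicate number as a block (-0.52, adjusted p = 0.0145) and without the filter on low counts (-0.50, adjusted p = 5.18e-08), and in none of the other 26 alternatives. The value without the filter was no larger than in the main fit, where the unadjusted edgeR p was 0.00299. Its small adjusted p therefore does not reflect a larger effect.

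Fluvastatin after H2O2 raised Malat1 to 1138, 1562 and 1249 CPM in siprdx1+H2O2+FV (log2 fold change 1.24 ± 0.11 against siprdx1+H2O2, adjusted p = 3.14e-08) and to 1313, 1483 and 1383 CPM in siNC+H2O2+FV (log2 fold change 0.87 ± 0.11 against siNC+H2O2, adjusted p = 4.18e-06). Every fluvastatin library lay above every library of its own H2O2 group. Without siprdx1+H2O2 libraries 1 and 2 the siprdx1 values were -1.56 for H2O2 and 1.38 for fluvastatin. Relative to cells with neither agent the levels overlapped, at -0.18 ± 0.11 in siprdx1 cells (adjusted p = 0.249) and -0.04 ± 0.11 in siNC cells (adjusted p = 0.852). The siprdx1 value was called lower without siprdx1+H2O2+FV library 2 (-0.32, adjusted p = 0.0214), with library size alone (-0.32, adjusted p = 0.0298), without the low-count filter (-0.17, adjusted p = 0.0124) and with the replicate block (adjusted p = 0.0442). The difference in drug effect between the arms was 0.37 ± 0.15 and was not called (adjusted p = 0.299, unadjusted p = 0.0222). It was called without the low-count filter (adjusted p = 0.000454), again with an adjusted p below the unadjusted p of the main fit. After H2O2 alone, Malat1 was lower in siprdx1 than in siNC cells (log2 fold change -0.45 ± 0.11, adjusted p = 0.0238), a call that was lost without any 1 of siNC+H2O2 libraries 2 and 3 (adjusted p = 0.0907 and 0.103) and siprdx1+H2O2 libraries 1 and 3 (adjusted p = 0.126 for each), with GC and length offsets (-0.49, adjusted p = 0.0772), and without siprdx1+H2O2 libraries 1 and 2 together (-0.59, adjusted p = 0.113). After H2O2 with fluvastatin the knockdown effect was -0.08 ± 0.11 (adjusted p = 0.76), and 0.06 with GC and length offsets.

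The balance of Malat1 to Neat1 shifted under fluvastatin. Within single libraries, which needs no scaling between them, Malat1 had 2.43 to 3.38 counts per Neat1 count in siprdx1+H2O2+FV and 4.04 to 5.34 in siNC+H2O2+FV. The ratio was 1.46 to 1.82 in siprdx1+H2O2, 2.15 to 2.17 in siNC+H2O2, 1.79 to 2.15 in siprdx1 and 1.71 to 2.13 in siNC. The ranges of both fluvastatin groups lay above all others and did not touch each other. Smooth muscle markers moved with the drug too: their summed level (10 of 10 tested) was 3164 to 3464 CPM in siprdx1+H2O2+FV and 3447 to 3779 CPM in siNC+H2O2+FV, against 1824 to 2269 CPM in the groups with H2O2 alone, and the summed Leydig markers (8 of 10 tested) were 1517 to 1549 CPM and 1643 to 1687 CPM, against 1107 to 1280 CPM. Single Leydig markers were split: 3 of 8 were called higher with the drug and 1 lower in siprdx1 cells, and 2 higher and 3 lower in siNC cells. The summed macrophage markers, like Neat1, were higher with the drug in the siprdx1 arm and lower with it in the siNC arm. Their sum was 9421 to 9906 CPM in siprdx1+H2O2+FV, against 9056 to 9224 CPM in siprdx1+H2O2, with 3 of 17 markers called higher and 0 lower. It was 9270 to 9334 CPM in siNC+H2O2+FV, against 10480 to 11120 CPM in siNC+H2O2, with 8 of 17 called lower and 1 higher. The median of the 17 differences in drug effect between the arms was 0.29 on the log2 scale, beside 0.01 over all genes tested, and edgeR and limma voom called 0 of them, while DESeq2 called 9 higher and 13 had an unadjusted edgeR p under 0.05. The part of these markers in the results was not tested.

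The 8 snoRNA hosts were not moved as a block, and no difference between the arms in their H2O2 effect was called in the main fit. H2O2 raised Snhg8 in both arms, raised Snhg5 in the siNC arm and Zfas1 in the siprdx1 arm, and lowered Gas5 in the siprdx1 arm. With both nuclear RNAs, that made 5 of 10 genes called in siprdx1 cells, where 7.87% of all genes tested were called, and 4 of 10 in siNC cells, where 6.95% were. The median log2 fold change of the 8 hosts was 0.07 and 0.19 in siprdx1 and siNC cells, beside 0.02 and 0.01 over all genes tested. The summed macrophage markers were 9056 to 9224 CPM in siprdx1+H2O2, against 8706 to 8923 CPM in siprdx1, and 10480 to 11120 CPM in siNC+H2O2, against 9204 to 10070 CPM in siNC, with 0 and 2 of 17 markers called higher by edgeR, 0 and 3 by limma voom and 0 and 4 by DESeq2 in siprdx1 and siNC cells. At an unadjusted p under 0.05, 2 and 10 were higher and 0 lower. Their part in the host values was not tested.

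Snhg8, the host of the H/ACA snoRNA Snora24, held 22.5, 27.5 and 25.2 CPM in siprdx1+H2O2, against 18.7, 21.2 and 19.4 CPM in siprdx1, and 24.2, 21.4 and 27.8 CPM in siNC+H2O2, against 18.98, 15.3 and 17.8 CPM in siNC. The groups did not overlap in either arm. The log2 fold changes were 0.34 ± 0.11 (adjusted p = 0.0477) and 0.50 ± 0.11 (adjusted p = 0.00512). The call in siprdx1 cells was lost under 17 of 28 alternatives, among them 10 of the 18 that leave out a single library and the 1 that leaves out siprdx1+H2O2 libraries 1 and 2 (0.35, adjusted p = 0.215). The call in siNC cells was lost without siNC+H2O2 library 3 (0.39, adjusted p = 0.0562).

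Snhg5, the host of Snord50a and Snord50b, held 25.7, 27.9 and 28.6 CPM in siNC+H2O2, against 21.4, 20.4 and 21.9 CPM in siNC (log2 fold change 0.37 ± 0.08, adjusted p = 0.00656). It held 20.8, 20.8 and 25.0 CPM in siprdx1+H2O2, against 24.9, 21.2 and 24.3 CPM in siprdx1, with overlap (log2 fold change -0.07 ± 0.08, adjusted p = 0.676). The difference between arms, -0.44 ± 0.12, was not called (adjusted p = 0.195), but was with GC and length offsets (-0.42, adjusted p = 0.0311; 0.0154 with the replicate block added). Its value in siprdx1 cells was 0.10 (adjusted p = 0.728) with the 1 siprdx1+H2O2 library left after the deviating pair, which held 25.0 CPM.

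Zfas1 lies head to head with the protein-coding gene Znfx1 and hosts 3 annotated snoRNAs. It held 51.1, 58.2 and 56.7 CPM in siprdx1+H2O2, against 42.3, 45.3 and 42.9 CPM in siprdx1 (log2 fold change 0.35 ± 0.08, adjusted p = 0.00966). All 3 libraries lay above the untreated ones, and the value was 0.38 (adjusted p = 0.0617) without the 2 deviating libraries. In siNC cells the H2O2 libraries held 43.1, 41.4 and 48.3 CPM, against 44.0, 33.7 and 42.4 CPM in siNC, with overlap (log2 fold change 0.15 ± 0.08, adjusted p = 0.321). The difference between arms was 0.20 ± 0.12 and was not called (adjusted p = 0.925).

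Gas5, which hosts the most snoRNAs of the 8, held 130.3, 139 and 139.96 CPM in siprdx1+H2O2, against 158, 162 and 165 CPM in siprdx1 (log2 fold change -0.24 ± 0.06, adjusted p = 0.0178). Its siprdx1+H2O2 libraries were the lowest 3 of all 18. The call was lost without siprdx1 library 3 (-0.23, adjusted p = 0.073), without siprdx1+H2O2 library 1 (-0.21, adjusted p = 0.0618), without both deviating libraries (-0.20, adjusted p = 0.268), and with GC and length offsets (-0.25, adjusted p = 0.188), also with the replicate block (adjusted p = 0.116). In siNC+H2O2 the values were 150.1, 164 and 167 CPM, against 151, 151 and 168 CPM in siNC, with overlap (log2 fold change 0.03 ± 0.06, adjusted p = 0.82). The Gas5 difference between arms was -0.275 ± 0.09 and was not called (adjusted p = 0.413). Snhg1, the host of Snord22, missed the threshold in siNC cells (32.7, 34.4 and 31.7 CPM after H2O2, against 28.9, 28.0 and 27.2 CPM without, no overlap, log2 fold change 0.23 ± 0.07, adjusted p = 0.0518). It passed under 7 of the 28 alternatives, among them the replicate number as a block (adjusted p = 0.0451), DESeq2 (adjusted p = 0.0429) and GC and length offsets (0.25, adjusted p = 0.0142). Snhg3, Snhg6 and Snhg12 were not called for H2O2 in either arm, and Snhg12 had 0.20 ± 0.11 in siprdx1 and 0.26 ± 0.11 in siNC cells.

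**Figure D3:**
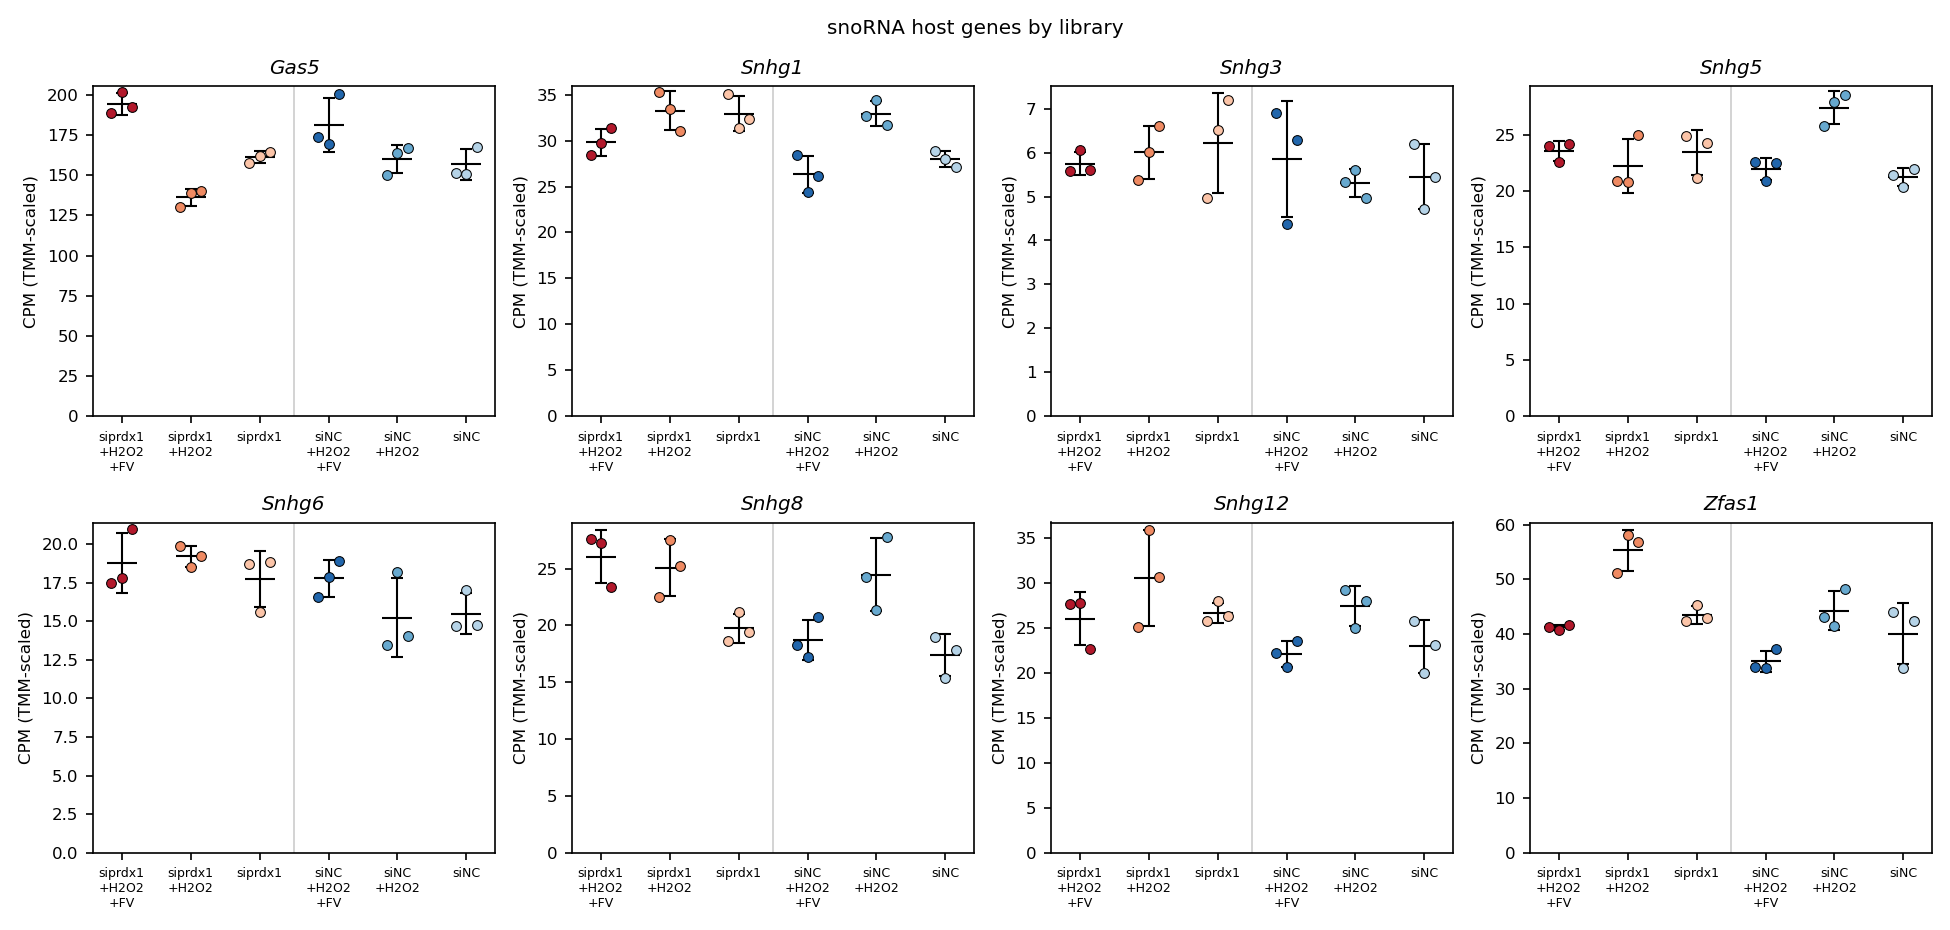
TMM-scaled CPM of the 8 snoRNA host genes in the 18 libraries; points are libraries, bars the mean ± SD of 3, with the siprdx1 groups left of the siNC groups. Gas5 is lowest in siprdx1+H2O2 and highest in the fluvastatin groups, whereas Zfas1 is highest in siprdx1+H2O2, at 51.1 to 58.2 CPM, and Snhg3 shows no separation of groups.

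Fluvastatin after H2O2 raised Gas5 and lowered Zfas1 in both arms. Snhg1, Snhg5 and Snhg8 were called lower in the siNC arm alone, with no difference between arms called for any of them in the main fit. Including Neat1 and Malat1, 4 of 10 genes were called in siprdx1 cells, where 23.6% of all genes tested were called, and 7 of 10 in siNC cells, where 24.9% were. The hosts' median log2 fold change was -0.05 and -0.31 in siprdx1 and siNC cells, beside -0.01 over all genes tested in each. Scaling by library size alone moved the median of all genes to -0.11 in both arms, and no called value of a member changed direction under it. The uncalled Snhg5 value in siprdx1 cells did change sign. In siNC cells, where Snhg1, Snhg5 and Snhg8 were called lower, 8 of 17 macrophage markers were called lower and 1 higher. In siprdx1 cells 3 of these markers were called higher and none lower, and their part in the host values was not tested.

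Gas5 held 189, 202 and 193 CPM in siprdx1+H2O2+FV, against 130.3, 139 and 139.96 CPM in siprdx1+H2O2 (log2 fold change 0.51 ± 0.06, adjusted p = 1.36e-06). In siNC+H2O2+FV it held 174, 169 and 201 CPM, against 150.1, 164 and 167 CPM in siNC+H2O2 (log2 fold change 0.18 ± 0.06, adjusted p = 0.0408). The siprdx1 groups were far apart, while in the siNC arm the groups were close. The siNC call was lost by scaling to library size alone (0.08, adjusted p = 0.398), with GC and length offsets (0.14, adjusted p = 0.427; 0.347 with the replicate block added), with only the groups compared in the fit (0.18, adjusted p = 0.0518), and without siNC+H2O2 library 1 (0.14, adjusted p = 0.188), siNC+H2O2 library 2 (0.20, adjusted p = 0.0546) or siNC+H2O2+FV library 3 (0.10, adjusted p = 0.254). The siprdx1 value was 0.47 without siprdx1+H2O2 libraries 1 and 2. The difference between arms was 0.33 ± 0.09 (adjusted p = 0.106) and was called with the replicate block (adjusted p = 0.0386), with DESeq2 (adjusted p = 0.0313), without the low-count filter (adjusted p = 0.0328) and without siNC+H2O2+FV library 3 (0.41, adjusted p = 0.0177).

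Zfas1 held 41.3, 40.7 and 41.6 CPM in siprdx1+H2O2+FV, against 51.1, 58.2 and 56.7 CPM in siprdx1+H2O2 (log2 fold change -0.43 ± 0.08, adjusted p = 0.000436), and 34.0, 33.8 and 37.2 CPM in siNC+H2O2+FV, against 43.1, 41.4 and 48.3 CPM in siNC+H2O2 (log2 fold change -0.34 ± 0.09, adjusted p = 0.00463). No fluvastatin library of either arm reached its H2O2 group, and the siprdx1 value was -0.46 without siprdx1+H2O2 libraries 1 and 2. In siNC cells Snhg1 fell by 0.33 ± 0.07 (adjusted p = 0.00184), Snhg5 by 0.32 ± 0.08 (adjusted p = 0.00569) and Snhg8 by 0.39 ± 0.11 (adjusted p = 0.00974) on the log2 scale, each without overlap. The Snhg8 call was lost without siNC+H2O2 library 3 (-0.28, adjusted p = 0.095) or siNC+H2O2+FV library 2 (-0.33, adjusted p = 0.0643). In siprdx1 cells Snhg1 had -0.16 ± 0.07 (adjusted p = 0.127), the same sign as in siNC cells, and overlapping libraries. Its drug effect differed between the arms by 0.17 ± 0.10 (adjusted p = 0.52). Snhg5 had 0.08 ± 0.08 in siprdx1 cells (adjusted p = 0.533, and -0.08 without siprdx1+H2O2 libraries 1 and 2) and Snhg8 0.06 ± 0.10 (adjusted p = 0.757). Between the arms, these drug effects differed by 0.40 ± 0.12 for Snhg5 (adjusted p = 0.14) and 0.45 ± 0.15 for Snhg8 (adjusted p = 0.207), neither of which was called; the Snhg5 difference was with GC and length offsets (0.38, adjusted p = 0.0462). Snhg12, which neighbours Snhg3 on chromosome 4, had -0.31 ± 0.11 in siNC cells (adjusted p = 0.0513) and -0.23 ± 0.11 in siprdx1 cells (adjusted p = 0.154). It passed under 11 of the 28 alternatives in siNC cells and under 2 in siprdx1 cells. Scaling to library size alone was among them in both arms (-0.41 and -0.33). In siNC cells so were the fits without the low-count filter (adjusted p = 0.00792) and with only the groups compared (adjusted p = 0.0136).

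The share of Gas5 among the hosts' counts followed the treatments. It made up 52.3% to 54.0% of the 8 hosts' counts in siprdx1+H2O2+FV, 40.9% to 42.0% in siprdx1+H2O2 and 48.1% to 49.0% in siprdx1. In the siNC arm it made up 53.9% to 56.4% in siNC+H2O2+FV, 46.3% to 48.5% in siNC+H2O2 and 48.6% to 52.4% in siNC. Within each arm the 3 ranges did not touch. The sum of the other 7 hosts was 169.6 to 172 CPM in siprdx1+H2O2+FV, 180.0 to 200.3 CPM in siprdx1+H2O2 and 169 to 171 CPM in siprdx1, and 139 to 155 CPM, 174 to 183 CPM and 139 to 159.95 CPM in the matching siNC groups.

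Against cells with neither agent, Gas5 after H2O2 and fluvastatin was higher in siprdx1 cells (log2 fold change 0.27 ± 0.06, adjusted p = 0.00259) and in siNC cells (0.21 ± 0.06, adjusted p = 0.0169), and Snhg8 was higher in siprdx1 cells (0.40 ± 0.11, adjusted p = 0.00678). With Neat1, that was 3 of 10 genes in siprdx1 cells and 2 of 10 in siNC cells, where 25.5% and 23.0% of all genes tested were called. These comparisons share their fluvastatin libraries with those above. The Gas5 call in siNC cells was lost without siNC library 1 (0.19, adjusted p = 0.0732), siNC library 2 (0.19, adjusted p = 0.0636) or siNC+H2O2+FV library 3 (0.13, adjusted p = 0.141), while scaling to library size alone ended the Gas5 call in both arms (0.13 in siprdx1 and 0.09 in siNC cells) and the Snhg8 call (0.26), and moved the median of all genes to -0.14 in siprdx1 and -0.12 in siNC cells. GC and length offsets also ended the Gas5 call in both arms (0.26, adjusted p = 0.0933, in siprdx1 and 0.16, adjusted p = 0.342, in siNC cells), and with the replicate block added they ended the Snhg8 call (0.29, adjusted p = 0.0652).

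**Figure D4:**
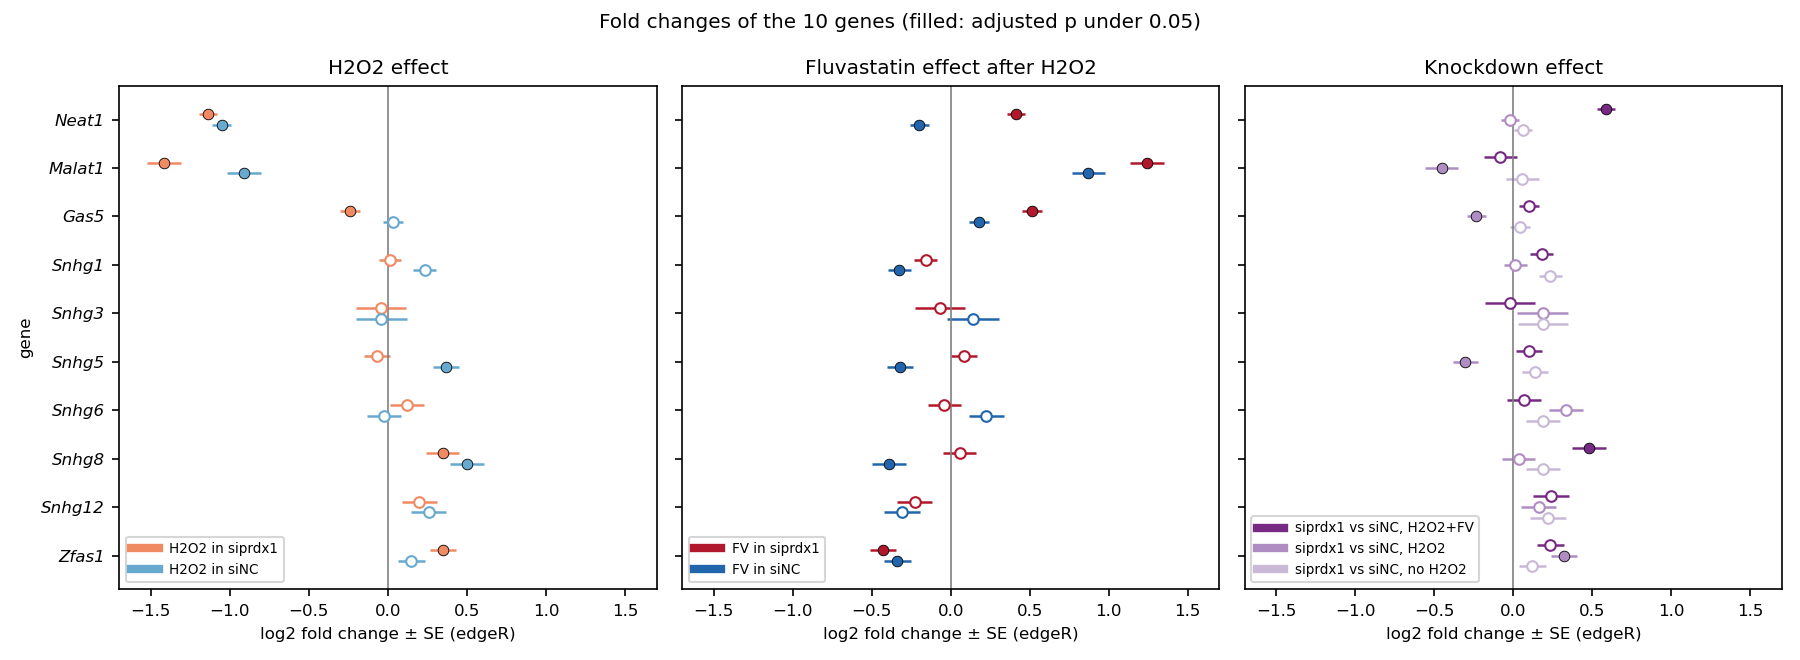
Log2 fold changes (horizontal axis, ± SE) of the 10 genes for H2O2, for fluvastatin after H2O2, and for siprdx1 against siNC under each treatment; filled points have an edgeR adjusted p under 0.05. Malat1 and Gas5 rise with fluvastatin in both arms, Zfas1 falls in both, and Neat1 is the gene whose filled points lie on opposite sides of 0, at 0.41 in siprdx1 and -0.20 in siNC cells.

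Under single treatments, between 0 and 4 of the 10 genes were called for the Prdx1 knockdown. In cells with neither agent all 8 hosts had values above 0, with a median log2 fold change of 0.19, beside 0.003 over all genes tested. Among 14 tested genes from a list of other snoRNA hosts the median was 0.22, with 1 called higher and 0 lower. Without H2O2 none of the 10 was called by edgeR, where 2.33% of all genes tested were; 1 of them, Snhg1, had an unadjusted p under 0.05 (35.1, 31.4 and 32.4 CPM in siprdx1, against 28.9, 28.0 and 27.2 CPM in siNC, log2 fold change 0.23 ± 0.07, adjusted p = 0.11), and 0 were called under any of the 28 alternatives, DESeq2 and limma voom included. After H2O2, 4 of 10 were called, where 2.73% of all genes tested were: Malat1, Gas5 (-0.23 ± 0.06, adjusted p = 0.0499) and Snhg5 (-0.30 ± 0.08, adjusted p = 0.0463) lower, and Zfas1 (0.32 ± 0.08, adjusted p = 0.0358) higher. Between 1 and 4 were called when single libraries of either siRNA were left out. With siprdx1+H2O2 library 3 alone, 0 were called at values of -0.59 for Malat1, -0.19 for Gas5, -0.14 for Snhg5 and 0.36 for Zfas1, where calls among all genes also dropped to 122. Zfas1 missed the threshold without siNC+H2O2 library 1 (adjusted p = 0.147) or 2 (adjusted p = 0.172), or siprdx1+H2O2 library 2 (adjusted p = 0.101) or 3 (adjusted p = 0.142). Gas5 was lost in 16 and Snhg5 in 14 of the 18 fits that leave out 1 library. Snhg6, the host of Snord87, held 19.9, 18.5 and 19.2 CPM in siprdx1+H2O2, against 13.4, 18.2 and 14.1 CPM in siNC+H2O2. The groups did not overlap, but the difference was not called (0.33 ± 0.11, adjusted p = 0.119), nor was any other of Snhg6. That value passed without siNC+H2O2 library 2 (0.48, adjusted p = 0.0232) and with GC and length offsets (0.33, adjusted p = 0.0205).

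After H2O2 with fluvastatin, 2 of 10 genes differed between the siRNAs, where 3.97% of all genes tested did, Neat1 and Snhg8. Snhg8 held 27.6, 27.2 and 23.3 CPM in siprdx1+H2O2+FV, against 18.3, 17.2 and 20.7 CPM in siNC+H2O2+FV (log2 fold change 0.48 ± 0.11, adjusted p = 0.00993). The libraries did not overlap, and the call was lost without siNC+H2O2+FV library 2 (0.42, adjusted p = 0.0812), siprdx1+H2O2+FV library 1 (0.43, adjusted p = 0.0679) or siprdx1+H2O2+FV library 2 (0.45, adjusted p = 0.0543). Averaged over the 3 treatments, 5 of 10 genes were higher in siprdx1 cells, where 3.93% of all genes tested were higher: Zfas1 by 0.23 ± 0.05 (adjusted p = 0.00347), Snhg8 by 0.23 ± 0.06 (adjusted p = 0.0161), Neat1 by 0.21 ± 0.03 (adjusted p = 0.000158), Snhg12 by 0.21 ± 0.07 (adjusted p = 0.0481) and Snhg1 by 0.14 ± 0.04 (adjusted p = 0.0319). Neat1, Snhg8 and Zfas1 passed under all 28 alternatives, whereas Snhg12 was lost under 17 and Snhg1 under 10. The Neat1 average combines 2 effects near 0 with the difference under fluvastatin. Of the 14 other snoRNA hosts tested, 5 were called higher and 0 lower for the averaged knockdown. The summed fibroblast markers were lower in siprdx1 cells as well, without H2O2 at 15320 to 16110 CPM in siprdx1, against 18170 to 19260 CPM in siNC. For the averaged knockdown, 6 of 10 tested fibroblast markers were called lower and 2 higher. Their part in these values was not tested.

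Genes for proteins of the bodies that Malat1 and Neat1 occupy were set beside them. Of 20 tested nuclear speckle proteins, 8 fell with H2O2 in siprdx1 and 9 in siNC cells and none rose, while 16 and 15 rose with fluvastatin and none fell. Their median log2 fold changes were -0.19 and -0.22 with H2O2 and 0.45 and 0.38 with fluvastatin, beside 0.02, 0.01, -0.01 and -0.01 over all genes tested. Of all genes tested, 5.39% and 4.59% fell and 2.48% and 2.36% rose with H2O2 in siprdx1 and siNC cells, and 12.6% and 13.5% rose and 11.0% and 11.3% fell with fluvastatin. Pnn, a speckle protein that binds SR proteins, fell by 0.76 ± 0.06 in siprdx1 and 0.52 ± 0.06 in siNC cells with H2O2. Srsf5, an SR splicing factor, rose by 1.16 ± 0.07 and 0.76 ± 0.07 with fluvastatin in siprdx1 and siNC cells, and Clk1, a kinase of SR proteins, fell by 1.04 ± 0.10 with H2O2 in siprdx1 cells, all on the log2 scale. Of 19 paraspeckle proteins, 6 and 5 fell with H2O2 in siprdx1 and siNC cells and none rose, and 10 and 8 rose with fluvastatin, with 1 and 0 falling (medians -0.06 and -0.08, then 0.28 and 0.18). Sfpq, which binds Neat1 directly, rose by 0.47 ± 0.06 with fluvastatin in siNC cells (adjusted p = 8.04e-07).

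Among 19 tested other nuclear or abundant long noncoding RNAs, 10 and 7 fell with H2O2 in siprdx1 and siNC cells and none rose, and 9 and 8 rose with fluvastatin, with 2 and 1 falling (medians -0.52 and -0.49, then 0.55 and 0.45). Meg3, an imprinted nuclear RNA, had log2 fold changes of -1.55 ± 0.06 and -1.33 ± 0.06 with H2O2 and of 1.26 ± 0.06 and 1.11 ± 0.06 with fluvastatin in siprdx1 and siNC cells. Of 14 tested genes from a list of other snoRNA hosts, 5 and 4 fell and 1 and 1 rose with H2O2, and 6 rose and 3 fell with fluvastatin in each arm (medians -0.31 and -0.28, then 0.23 and 0.24). The list was meant for noncoding hosts but also held Cwf19l1, which codes for a protein. Snhg11 had -1.45 ± 0.12 with H2O2 and 1.28 ± 0.12 with fluvastatin in siprdx1 cells, and -0.93 ± 0.12 and 0.83 ± 0.13 in siNC cells, while Snhg20 fell with fluvastatin by 0.88 ± 0.12 in siprdx1 and 0.65 ± 0.13 in siNC cells.

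**Figure D5:**
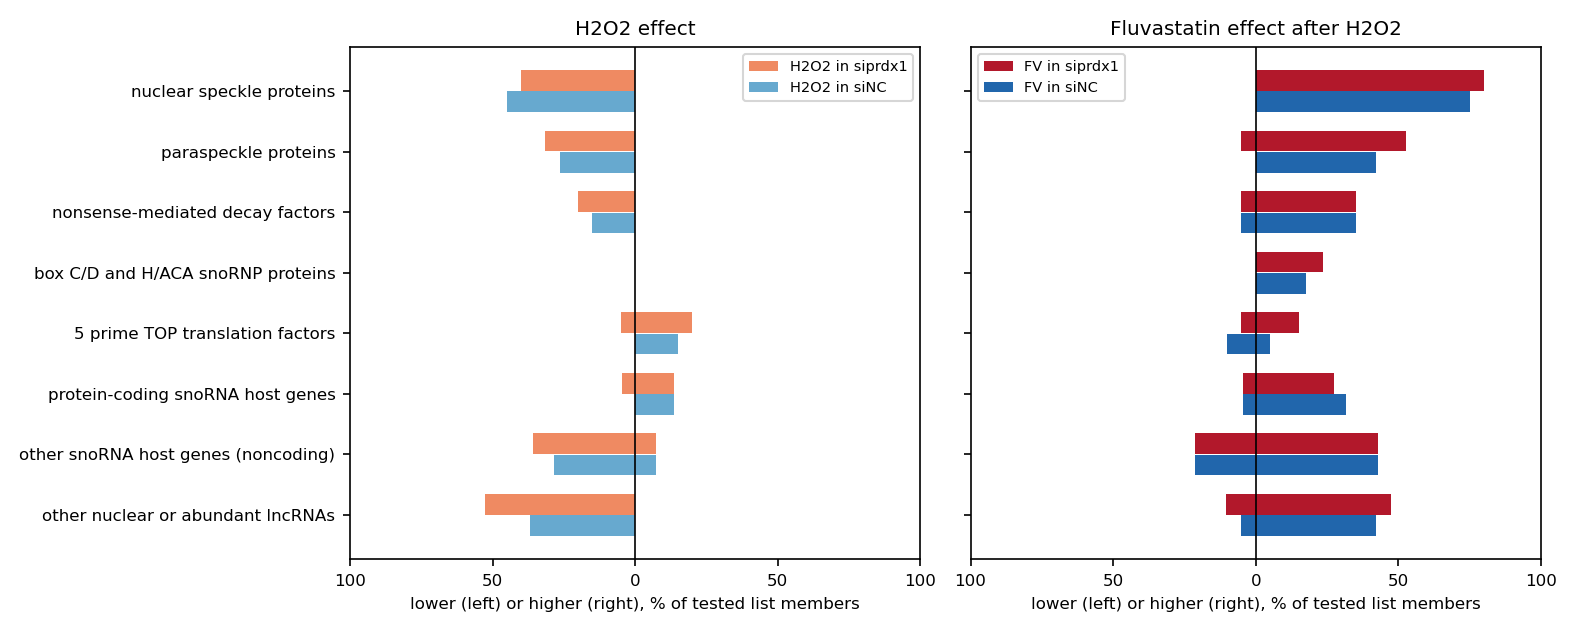
Share of the tested genes of 8 lists that passed the edgeR test as lower (left) or higher (right) with H2O2 and with fluvastatin after H2O2, in siprdx1 (upper bar) and siNC cells (lower bar). Speckle proteins and other long noncoding RNAs lie left of 0 with H2O2 and mostly right of 0 with fluvastatin, and no snoRNP protein passed with H2O2.

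Proteins that bind snoRNAs, RNA decay factors, genes whose RNAs begin with a TOP tract and protein-coding hosts form the other lists. Of 17 snoRNP proteins none passed with H2O2 in either arm, and 4 and 3 rose with fluvastatin in siprdx1 and siNC cells. For H2O2, 0 in siprdx1 and 4 in siNC cells had an unadjusted p under 0.05, and limma voom and DESeq2 called 0 in each. Of 20 nonsense-mediated decay factors, 4 and 3 fell with H2O2 in siprdx1 and siNC cells, and 7 rose and 1 fell with fluvastatin in each. Upf3b, which links exon junctions to the decay machinery, had -1.02 ± 0.10 and -0.51 ± 0.09 with H2O2, and 0.91 ± 0.10 and 0.46 ± 0.10 with fluvastatin. Pnrc2, a decapping cofactor, was the 1 factor that fell with fluvastatin, by 0.76 ± 0.08 and 0.56 ± 0.08. Of 20 genes listed for TOP tract RNAs, most of them for translation factors, 4 rose and 1 fell with H2O2 in siprdx1 cells and 3 rose in siNC cells. With fluvastatin 3 rose and 1 fell in siprdx1 cells and 1 rose and 2 fell in siNC cells. The list also held genes such as Hnrnpa1 and Npm1, which do not code for translation factors. Hnrnpa1 was the 1 that fell with H2O2 in siprdx1 cells and the 1 that rose with fluvastatin in siNC cells. Both genes were among the 3 that rose with fluvastatin in siprdx1 cells. Of 22 protein-coding snoRNA hosts, 3 rose with H2O2 in each arm with 1 and 0 falling, and 6 and 7 rose with fluvastatin with 1 falling in each. With siprdx1+H2O2 library 3 alone, where fewer of all genes tested were called (565 for H2O2 and 2432 for fluvastatin), the counts in siprdx1 cells were 8 speckle proteins, 6 paraspeckle proteins, 8 other long noncoding RNAs and 2 decay factors lower with H2O2, and 15, 8, 9 and 2 higher with fluvastatin.

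Over the 18 libraries, and among 9688 genes averaging at least 10 CPM, the log2 CPM profile most like that of Malat1 was Meg3 (Pearson r = 0.969), followed by Pnn (0.955), Upf3b (0.952), Leng8 (0.947) and Firre (0.944). Neat1 was most like Ankrd16 and AI480526 (0.942 each), Vamp2 (0.922), Fam193b (0.911) and Rrnad1 (0.907). Gas5 was most like Anapc15 (0.94), Csf2rb (0.91), Sbno2 (0.898), Spindoc (0.887) and Lrrc8a (0.877). The mean standardised profile of the 8 hosts was most like Tmem176a (0.921), Med28 (0.89), Acot13 (0.882), Vat1 (0.861) and Mrpl2 (0.857). Between the members, Malat1 had 0.557 with Neat1 and -0.737 with Zfas1, Snhg12 had 0.839 with Zfas1 and 0.782 with Snhg8, and Neat1 had -0.022 with Gas5. These values describe 18 libraries that share 6 treatments and their scaling.

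The snoRNAs themselves were hardly counted. Their 32 table rows had 460 counts over all libraries, against 125201 counts of their hosts. Mature snoRNAs are short and lack a poly(A) tail, and how reads from a snoRNA inside an annotated exon were assigned was not tested. Snora73b, in an Snhg3 intron, had 248 counts and Gm23201, in Zfas1, had 160, each found in 18 libraries, Snord87 of Snhg6 had 43 and Snora73a of Snhg3 had 9. The other 28 rows were at 0. Some counts may also hold reads of a neighbour, or lack reads shared with it. No source used here says whether counting used strand or how shared reads were assigned. Of Snhg3 exon, 705 bp or 71.5% lie opposite Gm17300, and 135 bp are shared with Rcc1 on the same strand. Another 127 bp of Snhg6 lie opposite Mcmdc2, 82 bp of Zfas1 opposite Znfx1, and 453 bp of Malat1 opposite Gm37376. Over the 18 libraries Gm17300 had 16 counts, Mcmdc2 29, Gm37376 412, Rcc1 7782 and Znfx1 35527. Snhg3, the gene with the lowest level (4.38 to 7.19 CPM in single libraries), was not called in any comparison.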

How the data were processed

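RNA was taken from 18 cultures, 3 biological replicates per group by their titles. Per the labels, poly(A) RNA with an integrity number above 7 went into TruSeq Stranded mRNA libraries, read as 150 bp pairs on a NovaSeq instrument. The authors deposited raw counts per gene, and the submitters' processing notes name HISAT2, HTSeq and mm10; versions, annotation and strand setting are not given in the sources used here. Genes passing filterByExpr (16432 of 55487) were fitted with edgeR 4.0.16 (R 4.3.3) as 6 group means over 18 libraries, with TMM factors, a robust quasi-likelihood test, 12 residual degrees of freedom and Benjamini-Hochberg adjustment within each of 12 contrasts. The common biological coefficient of variation was 7.01%. The fit was tested on simulated data. Alternatives included limma voom (limma 3.58.1), DESeq2 1.42.0, other scalings, GC and length offsets, a replicate block and leaving out libraries. Loci and lengths come from GENCODE vM21 (55141 gene IDs found) and promoters from RefSeq. Replicate numbers deviated together in 1 of 9 pairwise comparisons, H2O2 in siNC cells (correlations 0.135, 0.135 and 0.118). All 10 members were named, and of the other lists at most 4 genes per comparison with the smallest adjusted p. Members and lists were chosen with earlier results of these data known.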

Additional observations from a re-analysis of the deposited data

Results flagged for a closer look

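The effect of fluvastatin after H2O2 on Neat1 differed between siprdx1 and siNC cells by 0.611 on the log2 scale (adjusted p = 0.000143, interaction term in edgeR), with all 3 siprdx1 libraries above and all 3 siNC libraries below their H2O2 groups. None of the other members passed this test.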

How the results depend on the processing

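Of 37 called member values, 20 passed under all 28 alternatives and 0 changed sign; the cause of the changes below was not tested. With library size alone, 2 members were called for knockdown after H2O2, Snhg5 had -0.0191 for fluvastatin in siprdx1 cells and Snhg6 -0.0586 for both agents in siprdx1 cells. With GC and length offsets, without and with the replicate block, 3 and 3 members were called for H2O2 in siprdx1 cells, 1 and 1 for both agents in siNC cells, 1 and 1 for the H2O2 interaction and 2 and 2 for the fluvastatin interaction, Snhg6 had -0.0234 and -0.0237 for both agents in siprdx1 cells, and Malat1 0.0562 and 0.0469 for knockdown after both; with the block, 1 was called for both agents in siprdx1 cells. The replicate block alone called 1 member for the H2O2 interaction (Malat1, -0.518, adjusted p = 0.0145) and 2 for the fluvastatin interaction, but numbers paired samples only for H2O2 in siNC cells. Without the low-count filter 1 and 3 were called for the interactions, and DESeq2 called 2 for fluvastatin. Fitting only the groups compared left 1 for knockdown after H2O2. Without siprdx1+H2O2 replicates 1 and 2, chosen after seeing the data and leaving 1 library there, 2 were called for H2O2 in siprdx1 cells and 0 for knockdown after H2O2, and Snhg5 had 0.096 for H2O2 and -0.0848 for fluvastatin in siprdx1 cells. With limma voom, Snhg3 had 0.00921 for knockdown after both agents. Leaving out 1 library gave 3 to 5 calls for H2O2 in siprdx1 cells, 1 to 2 for both agents in siNC cells, 1 to 4 for knockdown after H2O2, 1 to 2 after both, 3 to 6 for the averaged knockdown and 1 to 2 for the fluvastatin interaction. It turned the sign of uncalled values for Snhg3 with H2O2 in siNC cells (-0.138 to 0.0552), Malat1 with both agents in siNC cells (-0.13 to 0.0124), Snhg6 with both in siprdx1 cells (-0.0077 to 0.13), and knockdown after H2O2 for Neat1 (-0.0629 to 0.0116) and after both for Malat1 (-0.222 to 0.0119) and Snhg3 (-0.192 to 0.106). With 3 libraries a group and as few as 89 counts of a member in a library, small changes of Snhg3 could not be resolved.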
